A study of Mus musculus with 8 samples.

Results

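miR-21 and its opposite strand miR-21* were followed across kidneys of mice with a blocked ureter. Both were found by their names in the scanner files, mmu-miR-21 and mmu-miR-21*, and are 2 of the 611 mouse microRNAs (miRNAs) on the array. The obstructed, or UUO, kidneys (unilateral ureteral obstruction, n = 4) were those whose ureter had been tied for 7 days. The control kidneys (n = 4) were contralateral kidneys, without obstruction. All mice were of the ICR strain, an outbred laboratory stock. As a contralateral kidney, a control kidney came from an animal with its other ureter tied and not from an intact one. Age and sex are not given in the sources used here. The labels call the kidneys separate samples but do not say that they came from separate mice, so the p-values measure only the spread between these samples. RNA of every kidney was labelled with Cy3 and put on a separate Agilent array of mouse miRNA probes, which gives a brightness (intensity) per spot.

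Obstruction of the ureter is a standard way to bring on kidney fibrosis, in which fibroblasts lay down scar matrix while tubule cells are lost and leukocytes enter. miR-21 is a widely expressed miRNA that is induced in injured and fibrotic organs and by TGF-beta signalling, and it binds messenger RNAs such as those of Pdcd4 and Ppara. A miRNA hairpin is cut into a duplex, of which one strand, here miR-21, is loaded into Argonaute and kept, while the other, written with an asterisk in older names, is mostly degraded. A miRNA finds its targets mainly through its seed, bases 2 to 8 counted from the 5′ end.

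The sequences of both strands, with the seed in capitals, are given because they define what the 2 members can pair with, and the hairpin shows that both come from 1 precursor. RefSeq's current names for the array's miR-21 and miR-21* are mmu-miR-21a-5p and mmu-miR-21a-3p, and both members were found there (build GRCm38.p6). The gene Mir21a lies on the minus strand of chromosome 11, within the annotated span of Vmp1, a protein-coding gene of membrane trafficking and autophagy. Positions are chr11:86584120-86584141 for miR-21 and chr11:86584082-86584103 for miR-21*.
mmu-miR-21a-5p: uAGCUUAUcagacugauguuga
mmu-miR-21a-3p: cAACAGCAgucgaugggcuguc
The hairpin (chr11:86584067-86584158, minus strand) reads as follows, with miR-21 and then miR-21* in capitals.
Mir21a hairpin: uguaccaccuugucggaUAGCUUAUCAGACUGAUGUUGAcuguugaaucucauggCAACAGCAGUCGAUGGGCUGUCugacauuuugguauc

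RefSeq lists 2 further mouse miRNAs under the miR-21 name, and neither is a name on the array. mmu-miR-21c (chr8:128278188-128278208, minus strand) has the seed of miR-21 and matches it at 16 of 21 positions. mmu-miR-21b (chr3:29636768-29636790, plus strand) matches at 18 of 22 positions but has another seed. They are printed because the probe sequences are not given in the sources used here, and how far the miR-21 probes tell these copies apart was not tested.
mmu-miR-21c: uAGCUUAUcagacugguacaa
mmu-miR-21b: uAGUUUAUcagacugauauuucc

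UUO kidney 2 stood apart from the other UUO kidneys. The summed scaled level of 7 leukocyte miRNAs was 7.69, 7.40 and 6.84 in UUO kidneys 1, 3 and 4 but 1.88 in UUO kidney 2, against 1.99 to 2.71 in control kidneys. limma's array weights, which fall as an array strays from its group, gave it 0.114. Because it was singled out for what it measured, its omission raises most differences by construction, and results are given with and without it. All arrays were on 1 slide with 1 scan, with kidneys 1 and 2 of each group in slide row 1 and the rest in slide row 2. Between 243 and 310 miRNAs were above background on UUO arrays and between 228 and 240 on control arrays.

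Brightness of miR-21 was far higher in 3 of the 4 UUO kidneys than in any control kidney. The summed signal of its 2 probes, before any scaling between arrays, was 72283, 13030, 113085 and 136093 in UUO kidneys 1 to 4. In control kidneys 1 to 4 it was 16771, 13572, 32241 and 18179. UUO kidney 2 lay below every control kidney, and control kidney 3 was the brightest control. The mean log2 signal was 15.91 ± 1.54 in UUO kidneys and 14.22 ± 0.53 in control kidneys (SD, n = 4 each). The difference of 1.69 had an exact permutation p of 0.143, two-sided, where 4 against 4 arrays can go down to 0.0286. It came to 2.44 without UUO kidney 2 (exact permutation p = 0.0286, which 3 against 4 arrays cannot go below). The difference was 1.02 within slide row 1, which holds UUO kidney 2, and 2.36 within slide row 2.

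UUO arrays were brighter for most miRNAs, so part of that gap is shared by the whole array. The 75th percentile signal of the probes detected on every array was 689, 514, 1403 and 1595 on UUO arrays 1 to 4 and 513, 417, 552 and 582 on control arrays 1 to 4. Divided by it, miR-21 stood at 104.9, 25.3, 80.6 and 85.3 times that percentile in UUO kidneys 1 to 4. In control kidneys 1 to 4 it stood at 32.7, 32.5, 58.4 and 31.2 times. The order of the arrays kept its main feature: UUO kidneys 1, 3 and 4 lay above all controls and UUO kidney 2 below them all. On this scale the mean level was 74.0 ± 34.1 in UUO kidneys and 38.7 ± 13.1 in control kidneys (SD, n = 4 each).

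On the log2 scale of that scaled level, miR-21 differed by 0.81 ± 0.46 (SE, n = 4 each), a ratio of 1.75 between UUO and control kidneys. The 95% confidence interval ran from -0.24 to 1.86, and the Benjamini-Hochberg adjusted p over 222 tested miRNAs was 0.234 (limma), so the difference did not pass the test. The median of the 222 was -0.14, and miR-21 had the 26th highest change. Of the 222 miRNAs, 33 (14.9%) passed at an adjusted p under 0.05, of which 3 (1.35%) were higher in UUO kidneys. All 4 UUO arrays lay above all 4 control arrays for 4 miRNAs (1.8%), and miR-21 was not among them.

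Without UUO kidney 2, miR-21 rose in UUO kidneys by 1.27 ± 0.25 on the log2 scale (SE, n = 3 and 4), 2.40-fold, with a 95% confidence interval from 0.68 to 1.85 and an adjusted p of 0.00575 (limma). An exact permutation test of the same difference gave p = 0.0571 (3 against 4 arrays). The 3 UUO arrays lay above all 4 control arrays. Many other miRNAs behaved likewise: 113 of 222 (50.9%) were called, 46 (20.7%) rose, and 53 (23.9%) had all 3 UUO arrays above all control arrays. miR-21 had the 18th highest change of the 222. Of the 8 fits that each left out 1 array, 1 called miR-21, the one without UUO kidney 2. Without control kidney 3, the highest control, the change was 1.03 with an adjusted p of 0.197 (limma).

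**Figure D1:**
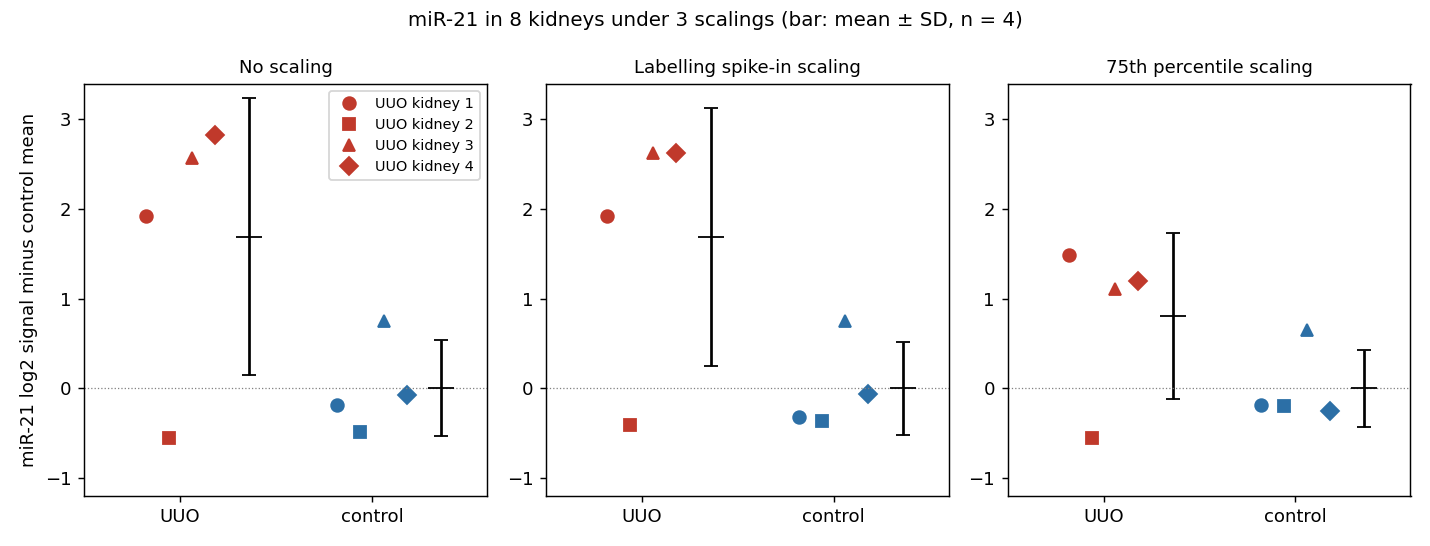
log2 signal of miR-21 minus the control mean (vertical axis) in UUO kidneys (red) and control kidneys (blue), with no scaling, with labelling spike-in scaling and with 75th percentile scaling. Symbols mark the kidney number and are the same in both groups, and bars show mean ± SD (n = 4). In each panel UUO kidneys 1, 3 and 4 lie above every control kidney and UUO kidney 2 (square) below every control kidney.

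The array also carries labelling spike-ins, synthetic RNAs added to each sample before labelling, which give a scale that does not rest on the kidney's own miRNAs. The amounts added are not given in the sources used here. Their mean log2 signal differed by 0.0008 between UUO and control arrays (SD 0.15 and 0.11, exact permutation p = 0.971, n = 4 each). Scaled by them, miR-21 lay at 1.92, -0.41, 2.63 and 2.62 relative to the control mean (log2) in UUO kidneys 1 to 4. Control kidneys 1 to 4 lay at -0.32, -0.37, 0.75 and -0.065. The change was 1.69 ± 0.59 (SE, n = 4 each), 3.23-fold, with an adjusted p of 0.0695 (limma), while the median of all tested miRNAs moved to 0.74. Relative to that median miR-21 differed by 0.95, the same as with percentile scaling, since a factor per array moves all miRNAs alike. The spike-in scaled change without UUO kidney 2 was 2.39 ± 0.40 (SE, n = 3 and 4), 5.25-fold, with an adjusted p of 5.76e-06 (limma), and 115 of 222 miRNAs (51.8%) rose. On 8 arrays 3 (1.35%) did.

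The direction of miR-21 was the same under every setting tried on 8 arrays, but its size was not. Quantile normalization, which forces all arrays to 1 distribution, gave the smallest change, 0.51 ± 0.31 (SE, n = 4 each; adjusted p = 0.311, limma). Without UUO kidney 2 it gave 0.73 with an adjusted p of 0.0582, the only one of 12 other settings without that array in which miR-21 was not called. These 12 are not all distinct, since the authors' values equal those with no scaling. Down-weighting straying arrays in place of dropping them gave 1.33 ± 0.23 and an adjusted p of 0.00165 (limma), in a fit in which 54 of 222 miRNAs (24.3%) rose. The weights were estimated from these same arrays and gave UUO kidney 2 the lowest, 0.114, so this fit comes close to omitting it. Within slide row 1 the change was 0.66 (adjusted p = 0.925, limma, 2 against 2 arrays), and within slide row 2 it was 0.96 (adjusted p = 0.126).

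**Figure D2:**
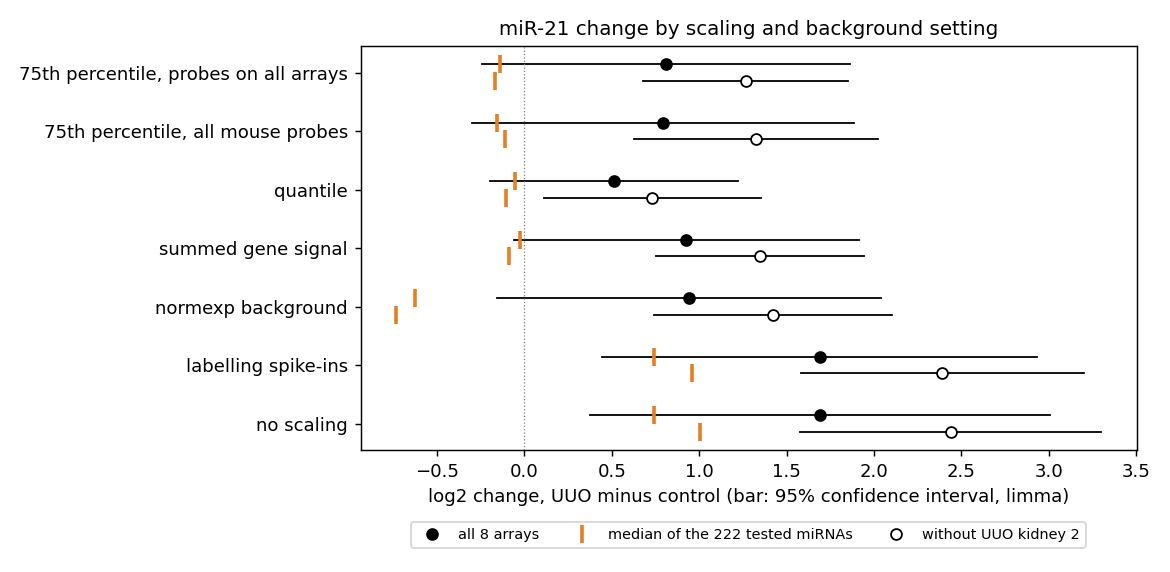
log2 change of miR-21, UUO minus control (horizontal axis), under 7 scaling or background settings, each for all 8 arrays (filled) and without UUO kidney 2 (open). Lines are 95% confidence intervals from limma and orange ticks the median of the 222 tested miRNAs, which lies below miR-21 in every case. The change runs from 0.51 to 1.69 on 8 arrays and from 0.73 to 2.44 without UUO kidney 2.

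The 2 probes of miR-21 gave the same picture. Each was spotted 10 times per array. The mean spot signal of probe A_54_P1307 was 54361, 9995, 82009 and 93283 in UUO kidneys 1 to 4, against 12913, 10159, 24621 and 13554 in control kidneys 1 to 4. That of probe A_54_P1308 was 17922, 3035, 31077 and 42810 in UUO kidneys and 3859, 3413, 7620 and 4625 in control kidneys, in the same order. For both probes UUO kidneys 1, 3 and 4 were above all controls and UUO kidney 2 was below them all. Tested alone, the first differed by 0.76 (adjusted p = 0.251) and the second by 0.94 (adjusted p = 0.219, limma, n = 4 each).

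Spots of 1 probe on 1 array had a coefficient of variation between 2.96% and 15.2%, which is a spread within arrays and not between kidneys. All 155 spots in use were well above background, 5 of 160 had been marked as outliers, and none was saturated. On bright arrays the software had taken some spots from a second reading at lower scanner gain, scaled up. This held for 40 of 80 spots of A_54_P1307, all of them on UUO kidneys 1, 3 and 4 and control kidney 3, and for 23 of 80 spots of A_54_P1308, all on UUO kidneys 1, 3 and 4. The part of that reading in the levels was not tested. The log2 difference between the probes, A_54_P1307 minus A_54_P1308, was 1.60, 1.72, 1.40 and 1.12 in UUO kidneys 1 to 4 and 1.74, 1.57, 1.69 and 1.55 in control kidneys 1 to 4. The groups overlapped, and the group difference of -0.18 had an exact permutation p of 0.314 (n = 4 each). It was -0.27 without UUO kidney 2 (exact permutation p = 0.114).

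**Figure D3:**
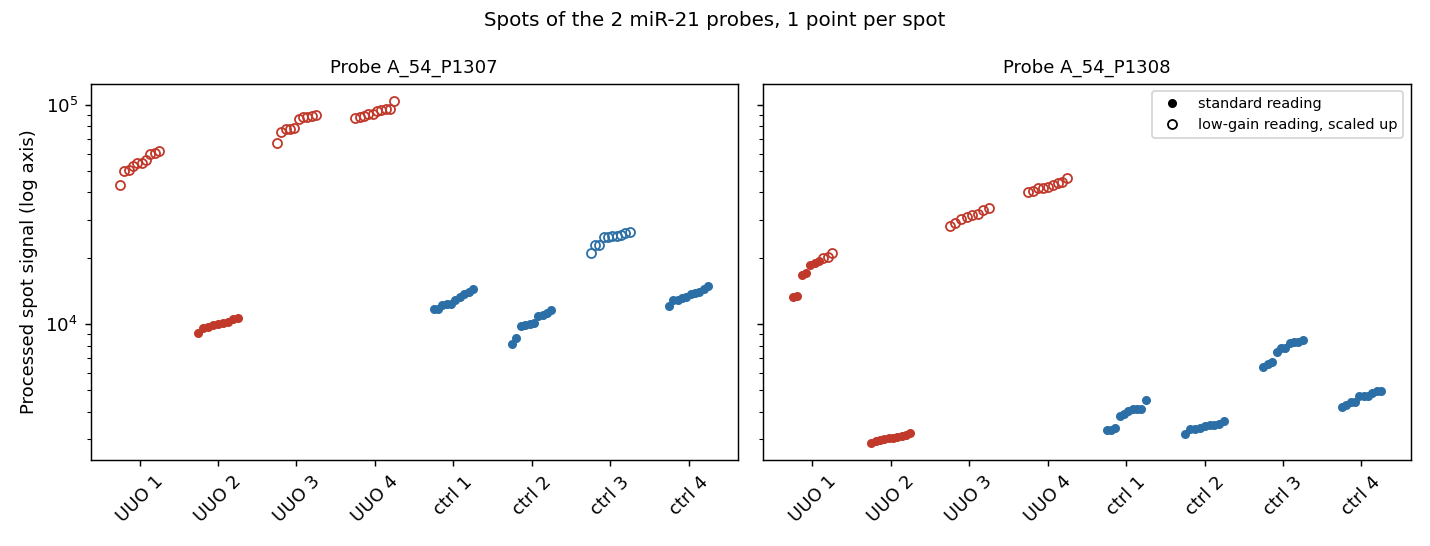
Processed spot signal (log axis) of the 2 miR-21 probes on each array, 1 point per spot, UUO in red and control in blue. Open points are readings at low scanner gain, scaled up by the software. Spots of an array cluster tightly and UUO kidneys 1, 3 and 4 stand above the controls for both probes.

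miR-21*, the strand that is mostly degraded, was near the detection limit. The software marks each spot as well above background or not, and a miRNA was taken as detected where more than 50% of the spots of any of its probes had the mark. By this rule miR-21* was detected in 1 of 4 UUO kidneys and in 0 of 4 control kidneys. It therefore did not enter the fit across miRNAs. In UUO kidney 4, 9 of its 20 spots (45%) were marked above background, in UUO kidney 3 it was 1 of 20 (5%), and UUO kidneys 1 and 2 had 0. None of the 78 spots in control kidneys was marked. The scanner software's own per-miRNA call marked miR-21* as detected in UUO kidneys 3 and 4 and in no other kidney.

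The summed signal of its 4 probes, before scaling, was 8.52, -6.08, 11.8 and 49.2 in UUO kidneys 1 to 4, where negative values arise from background subtraction. In control kidneys 1 to 4 it was -1.83, -0.27, 0.97 and -1.57. UUO kidneys 1, 3 and 4 lay above all controls and UUO kidney 2 below them, the same order as for miR-21. The means were 15.9 ± 23.5 in UUO kidneys and -0.67 ± 1.29 in control kidneys (SD, n = 4 each), a difference of 16.5 with an exact permutation p of 0.143. Omitting UUO kidney 2 gave a difference of 23.8 (exact permutation p = 0.0286, the smallest possible), and omitting UUO kidney 4 gave 5.43 (exact permutation p = 0.314). These sums are not scaled for the brighter UUO arrays. Divided by the 75th percentile of each array, the summed signal differed by 0.0112 (exact permutation p = 0.286, n = 4 each).

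The spots marked above background belonged to 2 of the 4 miR-21* probes. Probe A_54_P3447 read 6.91, -0.77, 9.51 and 28.9 in UUO kidneys 1 to 4 and 1.50, 1.24, 1.70 and 1.74 in control kidneys 1 to 4. Probe A_54_P3446 read 3.35, -0.86, 3.47 and 14.4 in UUO kidneys 1 to 4 and -1.93 to 1.62 in control kidneys. Probe A_54_P3444, with no marked spot, read 0.64, -2.41, -0.83 and 3.08 in UUO kidneys 1 to 4 and -3.42 to -1.03 in control kidneys. UUO kidneys 1, 3 and 4 lay above all controls, but these are readings at background. Those of UUO kidneys 1 and 3 were below the negative control means of the same arrays (1.29 and 1.10). The group difference of A_54_P3444 was 1.95 (exact permutation p = 0.2, n = 4 each), and 2.80 without UUO kidney 2 (exact permutation p = 0.0286). Probe A_54_P3445 read -2.38 to 2.86 in UUO kidneys and -0.84 to -0.21 in control kidneys, with a difference of 0.037 (exact permutation p = 0.971, n = 4 each). For scale, negative control spots averaged 0.92 to 2.02 with an SD of 1.85 to 2.12 per array. No fold change is given for miR-21*, because no level was measured in control kidneys, and after percentile scaling the lowest detectable level there (0.0214) was above the group mean of A_54_P3447 in UUO kidneys (0.00835). The difference between the strands could not be computed either, since miR-21* was at the floor of the log scale on 7 of 8 arrays.

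**Figure D4:**
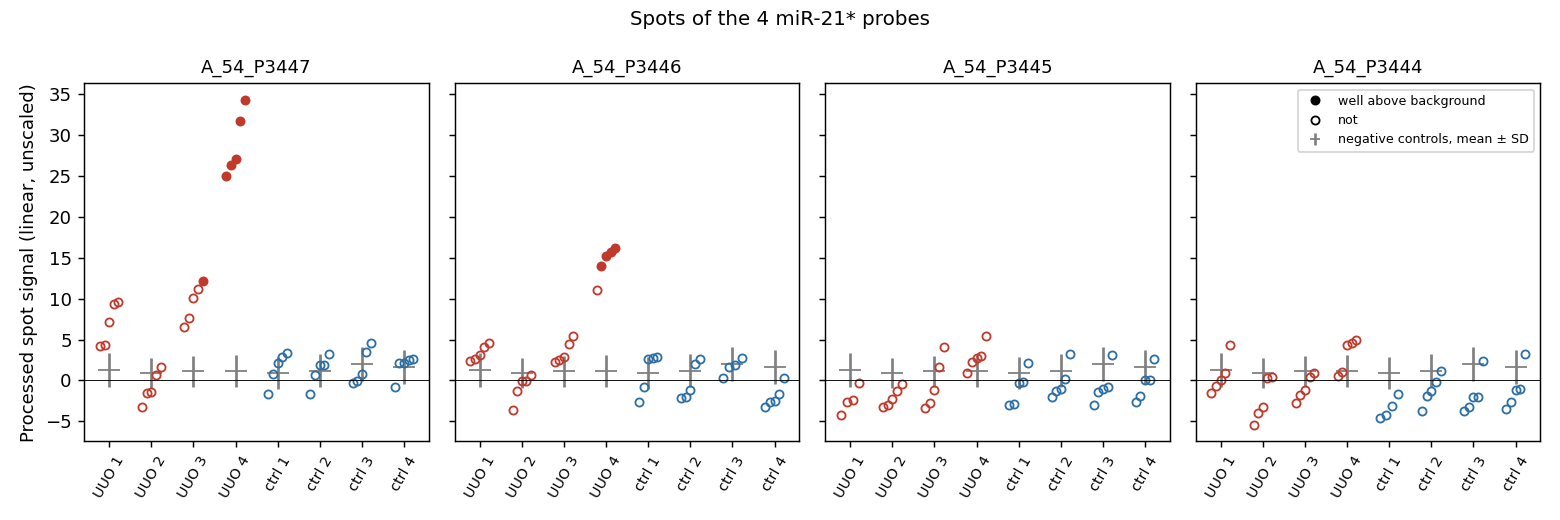
Processed spot signal (linear, before scaling) of the 4 miR-21* probes on each array, UUO in red and control in blue, filled where a spot was marked well above background. Grey bars are the negative control spots, mean ± SD. Filled points occur in UUO kidneys 3 and 4 only, and the brightest spots are those of A_54_P3447 and A_54_P3446 in UUO kidney 4.

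Ratios between miRNAs on the same array do not depend on any scaling factor, so miR-21 was set against 9 others. The tubule miRNAs miR-192 and miR-194 mark the epithelium that carries out most kidney transport. Against them miR-21 was higher in UUO kidneys 1, 3 and 4 than in any control kidney. The tubule miRNA miR-204 was not among the partners, and its own level differed by -0.12 (adjusted p = 0.755, limma, n = 4 each). The log2 ratio to miR-192 was 2.82, 0.15, 2.28 and 3.08 above the control mean in UUO kidneys 1 to 4, and control kidneys ranged from -0.44 to 0.63. The mean change was 2.08, or 4.23-fold (exact permutation p = 0.0857, adjusted over 9 ratios 0.129, n = 4 each). It was 2.72, or 6.61-fold, without UUO kidney 2 (exact permutation p = 0.0286, adjusted 0.0643). Such a ratio also holds the partner's own change. On the percentile scale miR-192 differed by -1.27, miR-194 by -1.31 and miR-21 by 0.81. The change against miR-194, a tubule miRNA encoded in a cluster with miR-192, was 2.12, or 4.35-fold (exact permutation p = 0.0571, adjusted 0.129). Against the widely expressed let-7a and miR-16 it was 1.15 and 0.65 (exact permutation p = 0.0857 and 0.0571, both 0.129 adjusted).

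Against miRNAs of scar-forming and immune cells, the mean ratios lay below the control mean. The ratio whose groups did not overlap was that to miR-214, a miRNA of mesenchymal cells that has also been tied to kidney fibrosis. The log2 ratio of miR-21 to miR-214, relative to the control mean, was -0.69, -0.46, -0.54 and -0.84 in UUO kidneys 1 to 4. In control kidneys 1 to 4 it was -0.036, -0.14, 0.36 and -0.19. All 4 UUO kidneys, UUO kidney 2 included, lay below all controls, and the mean change was -0.63 (exact permutation p = 0.0286, the smallest possible, adjusted 0.129). Without UUO kidney 2 the mean change was -0.69. On the percentile scale miR-214 itself differed by 1.44 (adjusted p = 0.0774, limma, n = 4 each), beside 0.81 for miR-21. Among percentile-scaled levels of single miRNAs, 47 of 222 (21.2%) had all UUO arrays below all control arrays, and 72 (32.4%) without UUO kidney 2. Those are levels and not ratios, and the share over ratios of miR-21 to all tested miRNAs was not computed. The ratio to miR-223, a miRNA of myeloid cells, changed by -0.64 (exact permutation p = 0.0571, adjusted 0.129). The ratios to miR-199a-5p, miR-199a-3p and miR-142-3p changed by -0.35, -0.24 and -0.50 (exact permutation p = 0.2, 0.2 and 0.371), with overlapping groups.

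None of the 9 ratios passed after adjustment, and 1 had an unadjusted p under 0.05, or 4 without UUO kidney 2 (exact permutation test, n = 4 each or 3 and 4). In all 9, control kidney 3 had the highest control value, and all 9 contain its same miR-21 level. Another background correction (normexp) left the change of the miR-214 ratio at -0.060 (exact permutation test, adjusted p = 0.857, n = 4 each), so the size of this change depends on the background setting. With it the changes of the ratios to miR-223 and miR-199a-3p were -0.29 and -0.093, and those of the ratios to miR-199a-5p and miR-142-3p changed sign, to 0.25 and 0.22. The changes of the ratios to miR-192 and miR-194 were 2.09 and 2.14.

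**Figure D5:**
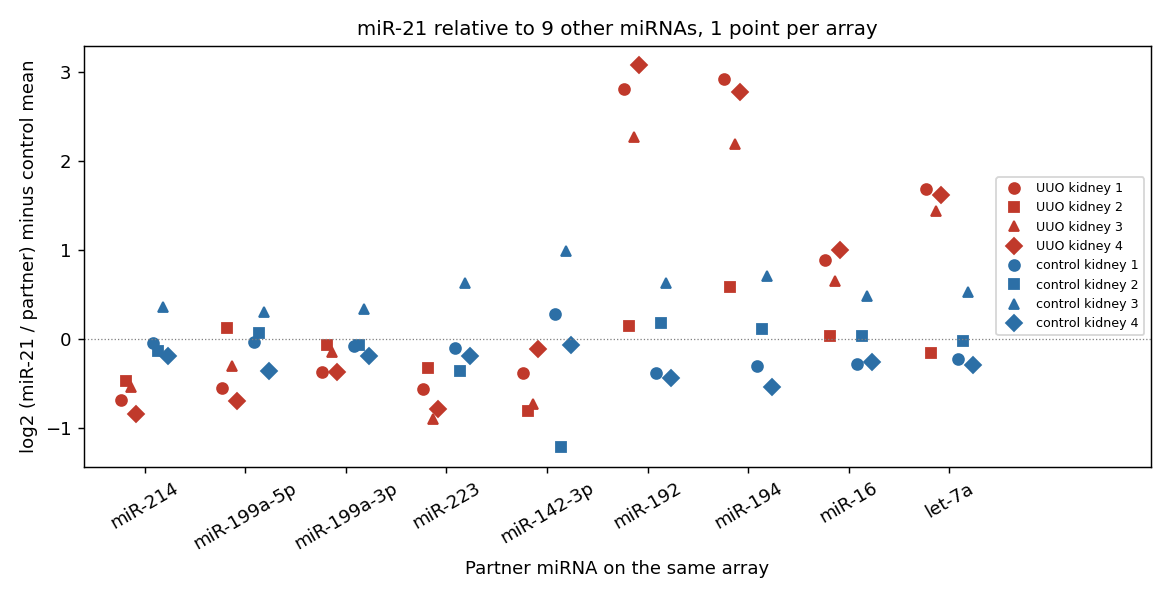
log2 ratio of miR-21 to 9 partner miRNAs on the same array, minus the control mean (vertical axis), 1 point per array, UUO in red and control in blue, symbols by kidney number. The 4 UUO kidneys lie below all controls for miR-214, and UUO kidneys 1, 3 and 4 lie above all controls for miR-192, miR-194, miR-16 and let-7a.

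Other miRNAs described in fibrosis work were counted by their known roles. Of 11 described as promoting fibrosis, 8 were tested, and on 8 arrays 0 rose and 1 fell (limma), against 3 (1.35%) that rose and 30 (13.5%) that fell among all 222. The falls depend on the scaling: with spike-in scaling 3 of 222 rose and 0 (0%) fell, and without UUO kidney 2 it was 115 (51.8%) and 2 (0.901%). The median change of the 8 was 1.10, beside -0.14 over all. The 1 that fell was miR-192, which is also a tubule miRNA, by 1.27 on the log2 scale (SE 0.26, adjusted p = 0.0213, n = 4 each). miR-199a-3p differed by 1.05 (adjusted p = 0.155) and miR-34a, a target of p53, by -0.19 (adjusted p = 0.531). When UUO kidney 2 was omitted, 6 of the 8 rose and 1 fell, with a median of 1.67, against 20.7% and 30.2% of all tested miRNAs.

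Of 12 described as limiting fibrosis, all were tested, and 0 rose and 5 fell on 8 arrays (13.5% of all tested fell), with a median of -0.60. With spike-in scaling none of the 222 was called lower on 8 arrays, so none of these falls is called on that scale. The 75th percentile itself was 0.88 higher (log2) on UUO arrays, so a smaller fall is no fall with spike-in scaling. miR-29a and miR-29c, which bind collagen messenger RNAs, fell by 0.49 (SE 0.13, adjusted p = 0.0335) and by 1.09 (SE 0.17, adjusted p = 0.0172) on the log2 scale, and miR-30a fell by 0.84 (SE 0.20, adjusted p = 0.0331; limma, n = 4 each). The falls of miR-29a and miR-30a are smaller than that 0.88, and that of miR-29c is larger. With UUO kidney 2 omitted, 0 of the 12 rose and 10 fell, where 30.2% of all tested fell. These 2 lists were chosen with results of these arrays known, and their counts are descriptions.

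Markers of cell types were set beside miR-21 across the 8 arrays. The summed scaled level of the leukocyte markers, given above, was high in UUO kidneys 1, 3 and 4, the kidneys with high miR-21. Of the 7 leukocyte markers 5 were tested, and 0 rose on 8 arrays (1.35% of all tested) but all 5 without UUO kidney 2 (20.7% of all tested). UUO kidney 2 was singled out partly by the summed level of these markers, so that second count is raised by construction. miR-223 differed by 1.45, miR-142-3p by 1.31 and miR-146a by 0.67 (adjusted p = 0.0837, 0.0851 and 0.149, limma, n = 4 each). On the percentile scale, tubule markers summed to between 4.39 and 8.67 in UUO kidneys and to between 11.6 and 17.1 in control kidneys. UUO kidney 2, where miR-21 was low, was the highest of the UUO kidneys and still below all controls. That order depends on the scaling. The percentile divisor was 689, 514, 1403 and 1595 in UUO kidneys 1 to 4 and 417 to 582 in control kidneys. Of 4 tubule markers 3 were tested and 2 fell, miR-192 and miR-194, where 13.5% of all tested fell. The third, miR-204, differed by -0.12 (adjusted p = 0.755, limma, n = 4 each). With spike-in scaling none of the 222 was called lower on 8 arrays, so neither fall is called on that scale. miR-215 was above background on no array. With tubule miRNAs above background in every kidney, the labelled tissue had its markers. The part of these cell types in the miR-21 levels was not tested, and in a whole kidney a change in the number of cells of a type and a change in RNA per cell cannot be told apart.

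Markers of red blood cells followed another order. Their summed level was 24.4 in UUO kidney 2 and 44.6 in control kidney 2, and between 5.16 and 7.58 in the other 6 kidneys. Both tested erythroid markers, miR-451 and miR-486, were uncalled, at -0.20 and -0.11 (adjusted p = 0.867 and 0.929, limma, n = 4 each). The endothelial markers summed to between 9.57 and 13.2 in UUO kidneys and between 12.1 and 15.2 in control kidneys, and the muscle markers to between 1.03 and 2.03 and between 1.31 and 1.64. Of the 2 endothelial markers, miR-126-5p fell by 0.81 (SE 0.18, adjusted p = 0.0266) and miR-126-3p differed by -0.30 (adjusted p = 0.201). On this scale 13.5% of all tested miRNAs fell, and with spike-in scaling none was called lower. The fall of miR-126-5p is smaller than the 0.88 (log2) by which the 75th percentile was higher on UUO arrays. It is therefore no fall with spike-in scaling. Of 6 muscle markers 2 were tested and 0 called: miR-143, of smooth muscle, differed by 0.10 (adjusted p = 0.770) and miR-1, of striated muscle, by -0.81 (adjusted p = 0.0906, limma, n = 4 each).

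The miRNAs whose levels ran closest to miR-21 over the 8 arrays were found by the root mean square difference between centred log2 levels. They were miR-181d (0.186), let-7i (0.202), miR-199a-3p (0.208), miR-18a (0.222) and miR-199b* (0.230), where the median over all tested miRNAs was 0.846 and the largest 2.14. Each was lower in UUO kidney 2 than the control mean and higher in the other 3 UUO kidneys. That pattern follows largely from picking them by closeness to miR-21. The changes of these 5 lay between 0.70 and 1.05, and none was called on 8 arrays (limma adjusted p from 0.123 to 0.230). By the same measure miR-214 came 11th and miR-192 189th of the tested miRNAs. The arrays are shared by all miRNAs, and closeness here is a description of 8 samples.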

How the data were processed

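The deposited files held an intensity per spot, made with Agilent's Feature Extraction software. The submitters' processing notes name version 10.1.1, and the file headers name 10.7.3.1. Per the file headers, the processed signal was background-subtracted, with no scaling between arrays, and the authors' series matrix held the same intensity for all 13715 spots of each array. Other deposited values were marks per spot of 0 or 1 for outlier, saturation, background and low gain. RNA input was 100 ng per the labels.

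Outlier spots were dropped, spots averaged per probe and each array divided by its 75th percentile over 371 probes detected on every array (over 50% of spots marked). Probes were summed per miRNA, floored at 0.0213 and put on a log2 scale. The 222 miRNAs above background on all arrays of a group were tested with limma 3.58.1 (lmFit, eBayes) in R 4.3.3, two-sided, Benjamini-Hochberg adjusted and called under 0.05. A change is relative to bright miRNAs of the same array. Single values had exact permutation tests (70 assignments). The fit was tested on simulated data. Named miRNAs are both members, up to 3 per list (called first, then brightest) and the 5 nearest to miR-21.

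Members and lists were chosen with earlier results of these data known. miR-21* was too dim for the planned fit and was tested on unscaled sums. The array number limits precision. Tables were made in Python 3.11.15 (pandas 2.3.3, numpy 2.4.6), figures with matplotlib 3.10.9.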

Additional observations from a re-analysis of the deposited data

Results flagged for a closer look

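Control kidney 3 had a log2 scaled miR-21 level of 5.87, apart from the other control kidneys at 4.96 to 5.03, a gap of 0.927 of the group's whole range and past Dixon's 95% limit for 4 samples. It also had the highest control ratio of miR-21 to each of the 9 partners, but these ratios all contain that same miR-21 level. Without it the change of miR-21 was 1.03 in place of 0.81 (limma, n = 4 and 3). UUO kidney 2 had a log2 ratio of miR-21 to let-7a of -0.16 relative to the control mean, apart from the other UUO kidneys at 1.44 to 1.69, a gap of 0.866 of the range. In all, 28 groups of 4 values were examined and 2 stood out, where chance gives about 1 in 20.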

How the results depend on the processing

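The change of miR-21 was above 0 in all 40 fits, the reported one included. These fits share arrays and are not all distinct. The series matrix holds the same intensities as no scaling, and the higher floor does not alter the level of miR-21. On 8 arrays, 17 other settings gave 0.51 to 1.69. Only array weights, which gave UUO kidney 2 a weight of 0.114, called it (1.33, adjusted p = 0.00165, limma). Leaving out 1 array gave 0.58 to 1.27, highest without UUO kidney 2. With UUO kidney 2 left out and another setting changed as well, 11 of 12 changes were called. They were 1.32 with all mouse probes, 2.44 with no scaling or the series matrix, 2.39 with spike-ins, 1.42 with normexp, 1.28 with outlier spots kept, 1.27 with the higher floor, 1.33 with mean log2 probe values, 1.35 with the summed gene signal, and 1.19 and 1.46 with probe A_54_P1307 or A_54_P1308 alone. Quantile normalization gave 0.73, not called. Unscaled miR-21 signal ran from 1.31 to 2.44 and the summed miR-21* signal from 5.43 to 23.8 with 1 array left out, both highest without UUO kidney 2.

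The number of called miRNAs, 33 as reported, was less stable. It was 0 with the 75th percentile over all mouse probes (56 at an unadjusted p under 0.05, limma), with normexp (54), with the replicate block (67) and within slide row 1 (1). It was 3, all higher, with no scaling, the series matrix values or the spike-ins, against 3 higher and 30 lower as reported, and 3 with the summed gene signal or quantile normalization. It was 17 with no filter on dim miRNAs, 69 within slide row 2 and 138 with array weights. With 1 array left out it ran from 0 to 113, highest without UUO kidney 2 and 0 without control kidney 1, 3 or 4 or UUO kidney 1 or 3 (54 to 67 at an unadjusted p under 0.05). With UUO kidney 2 left out and another setting changed, it was 33 with normexp (7 higher and 26 lower), 72 with all mouse probes, 115 with no scaling or the series matrix (113 higher), 117 with spike-ins (115 higher), 113 with outlier spots kept, 105 with the higher floor or the summed gene signal, 110 with mean log2 probe values and 96 with quantile normalization. The replicate block left miR-21 at 0.81 (adjusted p = 0.211, limma). Deviations of same-numbered kidneys correlated at -0.35, 0.22, 0.62 and 0.015, so the check did not show that the numbers pair the kidneys. Whether they mark a mouse is not given in the sources used here.

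The difference between the miR-21 probes was 0.0018 within slide row 1, against -0.18 as reported. With normexp, fitted on median spot signals because mean signals are not used here, the ratios to miR-199a-5p and miR-142-3p turned to 0.25 and 0.22, while those to miR-214 and miR-223 shrank to -0.060 and -0.29, against -0.63 and -0.64 as reported. The causes were not tested. The spike-in scaling, single-probe fits and joint settings were chosen after seeing the data. Fits and strand differences planned for miR-21* on the log2 scale were not run, since 7 of 8 arrays were at the floor. No other ratio turned its direction. For miR-21*, signal over background limits every comparison.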
